A study of Mus musculus with 23 samples.

Results

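Fragments of endogenous retroviruses in the mouse genome are described here. They were taken from a genome-wide methylation survey of muscle development. A fragment belongs to the set if it lies on an autosome (chromosomes 1 to 19), is at least 21 bp and under 2000 bp long, touches no CpG island and is annotated to an LTR repeat whose name does not start with IAP, MT, ORR1, MLT, MERVL or ERVL. This rule gave 2486 of the 173430 fragments in the table and of the 33929 that meet the limits on chromosome, length and islands. The rule used annotation alone and no read count, but it was set with earlier results of these data known.

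Methylation was read by AIMS-seq, in which digestion with SmaI leaves blunt ends at unmethylated CCCGGG sites. The methylated sites that remain are opened by XmaI, and adaptors join only its cohesive ends. A read therefore comes from a fragment with a methylated site at each end, and counts give no methylation level in percent. The muscle lineage was sampled as skeletal muscle tissue (3 libraries, of which muscle 3 is C57BL/6J and muscles 1 and 2 are of mixed 129Sv/C57BL/6J background), C57BL/6J myoblasts of cultures 21, 27 and 26 at passage 8 to 10, and the same 3 cultures after 1, 2 and 4 days of differentiation into myotubes. Single libraries came from uncultured C57BL/6J muscle precursor cells of muscle 3 days after CTX injury (the labels' abbreviation) and of uninjured muscle, and 2 libraries from C57BL/6J cultures 26 and 27 at passage 0. Embryonic stem cells (ESC) were the pluripotent comparison, with the lines CGR8 (129Sv, its library and a technical replicate summed), RD1 (129X1/SvJ) and E14Tg2 (129/Ola), which are numbered 1 to 3. The labels list no engineered allele, and CTX is the only agent named beside culture media. The cell or tissue type was taken from the labels, since DNA libraries hold no marker RNA. Between ESC and the cultured cells, strain and cell type change together and cannot be told apart. Muscles 1 and 2 differ from the myoblasts in strain as well as in cell type. The mm9 genome to which the reads were mapped is that of C57BL/6J.

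LTR retrotransposons are remnants of retroviruses that entered the germ line. A full copy has a long terminal repeat (LTR) at each side, which holds the promoter and the end of the transcript, and between them an internal part that encodes the viral proteins. Recombination between the LTRs of a copy leaves a solo LTR. In mouse, many young copies still move or are transcribed, and DNA methylation is a main means of silencing them in somatic cells, while stem cells also rely on histone methylation. A retrovirus starts copying its RNA at the primer binding site, just inside the left LTR, where the 3′ end of a host tRNA pairs.

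The letters at the fragment ends show the sites at which methylation was read. The annotated element lies at both sites in 757 members (30.45%) and at one site in 1728, so in most members one end is outside the element. The ends of the fragments that led the tests below are printed from the mm9 assembly on the plus strand, with the enzyme site in capitals.

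RLTR10, left end, chr17:88899875-88899944: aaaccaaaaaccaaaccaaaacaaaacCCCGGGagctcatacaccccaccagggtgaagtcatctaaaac
RLTR10, right end, chr17:88900353-88900422: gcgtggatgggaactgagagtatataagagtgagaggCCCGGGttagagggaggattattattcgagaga
RLTR1B-int, left end, chr13:68665580-68665649: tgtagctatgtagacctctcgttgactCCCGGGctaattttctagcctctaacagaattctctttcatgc
RLTR1B-int, right end, chr13:68665886-68665955: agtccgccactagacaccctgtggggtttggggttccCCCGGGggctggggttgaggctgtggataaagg
RMER17A, left end, chr1:190081074-190081143: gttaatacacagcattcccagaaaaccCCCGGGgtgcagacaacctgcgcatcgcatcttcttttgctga
RMER17A, right end, chr1:190082697-190082766: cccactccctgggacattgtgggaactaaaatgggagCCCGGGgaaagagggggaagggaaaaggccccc
RLTR10C, left end, chr4:89470291-89470360: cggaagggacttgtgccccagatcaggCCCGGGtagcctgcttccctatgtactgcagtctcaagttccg
RLTR10C, right end, chr4:89470830-89470899: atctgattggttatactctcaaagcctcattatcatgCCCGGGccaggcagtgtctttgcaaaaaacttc
RMER17D2, whole fragment with both sites, chr1:26390140-26390219: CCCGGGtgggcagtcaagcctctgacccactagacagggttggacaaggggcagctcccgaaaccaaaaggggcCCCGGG
RLTR10A, whole fragment with both sites, chr13:107848475-107848712: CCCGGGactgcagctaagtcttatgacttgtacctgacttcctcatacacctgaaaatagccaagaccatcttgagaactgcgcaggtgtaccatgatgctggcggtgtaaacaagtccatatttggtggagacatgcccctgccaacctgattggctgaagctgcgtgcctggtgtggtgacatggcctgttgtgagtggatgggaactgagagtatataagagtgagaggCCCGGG

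The right ends of the RLTR10 and RLTR10A fragments carry the same promoter stretch before the site, with a TATA sequence. Of all stretches of that length that end with the site, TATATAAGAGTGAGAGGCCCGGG was the most frequent at member ends. It was searched on both strands and lay at an end of 185 members (7.44%) and of 0.581% of all 33929 eligible fragments, members included (197 fragments). As it was picked at member ends, these shares are a description. It was at an end of 98 of 152 RLTR10 members and 63 of 152 RLTR10A members. The primer binding site that matches phenylalanine tRNA, TGGTGCCGAAACCCGGGA, also holds the enzyme site. It was likewise picked at member ends, searched on both strands and was found at an end of 198 members (7.97%), of 23.4% of IAP fragments and of 1.18% of all eligible fragments. In 59 members one end held the first stretch and the other end the second. The member with a primer binding site and the most reads, an RLTR10-int fragment, is shown on the minus strand with that site in capitals.

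RLTR10-int, right end, chr7:92039839-92039908: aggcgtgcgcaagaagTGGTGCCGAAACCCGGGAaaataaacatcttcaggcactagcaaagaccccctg

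The members carry 156 repeat names. By type, 1820 members (73.2%) are ERVK, 555 are ERV1, 102 are ERVL and the others are Gypsy or unplaced. The relatives of the betaretrovirus-like MMERVK10C, whose LTRs are named RLTR10, gave 850 members. RMER names, a collection of LTRs of rodents, gave 737. Murine leukaemia virus (MuLV) relatives, with RLTR4 as LTR, gave 225. The gammaretroviral GLN family with LTR RLTR1B gave 163, and VL30, a short element without viral genes of its own whose LTR is RLTR6, gave 89. ETn and MusD elements, which still move in mice, gave only 7 members. Internal parts were named for 571 members and LTR parts for 1915. Of all members, 1789 (72.0%) lie between genes, 486 in introns, 129 at promoters and 82 in exons.

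Copies of young elements resemble each other, and this limits what a read can be assigned to. The first 36 bases inside both ends were found at no other fragment end for 1092 members (43.9%), against 90.7% of MaLR and ERVL fragments and 22.8% of IAP fragments. The share was 76.9% for RMER members, 19.1% for MuLV, 17.2% for GLN, 16.8% for MMERVK10C and 8.99% for VL30. How reads that fit several copies were placed is not given in the sources used here, so counts of members with shared ends are uncertain between copies. No library had a read in 425 members, and 676 had under 10 reads over all libraries. The 10 members with most reads held 7.57% of all member reads.

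Libraries held 6237851 to 14696855 reads before the technical replicate was added to CGR8. Below, RPM stands for reads per 1000000 of all reads of a library, and a log2 change is that of the first named group over the second. Fragments were tested over the whole table with edgeR's quasi-likelihood test and Benjamini-Hochberg adjustment, and a call means an adjusted p under 0.05. P-values measure the spread between cultures, lines or muscles of a group. In the day 1 and day 4 libraries of culture 27, the members took 72820 and 74853 RPM, against 101930 RPM in its myoblasts and 98221 RPM at day 2. Muscles 1 and 2 had 69293 and 54648 RPM, against 99093 RPM in muscle 3.

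The members together took between 5.46% and 11.8% of a library's reads, and the totals of muscle, myoblasts and day 1 and day 4 myotubes overlapped those of ESC. Muscle averaged 74345 ± 22649 RPM, myoblasts 92675 ± 9086, day 1 myotubes 85955 ± 12468, day 2 myotubes 98817 ± 2614, day 4 myotubes 86788 ± 13341 and ESC 80342 ± 4156 (SD, n = 3 each). The highest totals were those of passage 0 cells, with 107498 and 118284 RPM. All day 2 myotube and passage 0 libraries lay above all ESC libraries, which was not tested. The library of injured muscle had 97711 RPM and that of uninjured muscle 99814 RPM, with no replicate of either. In exact permutation tests, 2-sided, over libraries, the difference was 0.20 (log2) for myoblasts against ESC (p = 0.2), 0.10 for day 4 myotubes against ESC (p = 0.7), -0.15 for muscle against ESC (p = 0.7) and -0.36 for muscle against myoblasts (p = 0.3). Such tests of 3 against 3 cannot go below 0.1. Day 4 myotubes against myoblasts gave -0.10 (exact permutation p = 0.5), with libraries taken as unpaired although both groups hold the same 3 cultures. In cultures 21, 27 and 26 the totals were 101191, 74853 and 84320 RPM at day 4, against 92329, 101930 and 83768 RPM in myoblasts. The next test left the shared cultures 26 and 27 unpaired too. Myoblasts against passage 0 gave -0.29 (exact permutation p = 0.2, the smallest that 3 against 2 can give), and each myoblast library was below both passage 0 libraries. With each culture averaged over its stages, the 3 cultures and 3 muscles together differed from the 3 ESC lines by 0.01 (exact permutation p = 0.857).

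**Figure D1:**
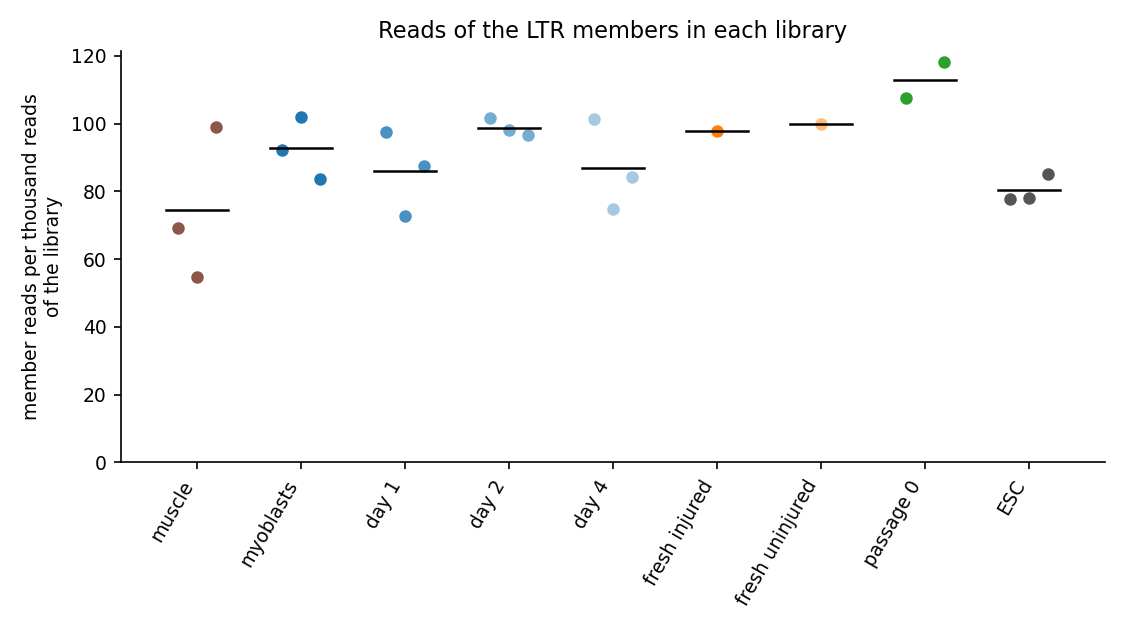
Reads of all 2486 LTR members per 1000 reads of each library (y axis) by group (x axis), where points are libraries and bars are group means. The 2 passage 0 libraries are highest, muscles 1 and 2 lowest, and the groups overlap ESC except for passage 0, day 2 myotubes and the single fresh libraries.

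Relative to IAP elements, which are among the most active LTR families in mice and were counted under the same limits, the members had a higher ratio in ESC than in muscle, day 4 myotubes and myoblasts. Member reads were 6.69 ± 0.686 times IAP reads in muscle, 7.55 ± 0.452 times in day 4 myotubes, 7.92 ± 0.751 times in myoblasts and 8.65 ± 0.224 times in ESC (SD, n = 3 each). The ratios of muscle and of day 4 myotubes lay below those of ESC in every library (exact permutation p = 0.1 for each, 2-sided, the smallest possible), and those of myoblasts did not separate from ESC (exact permutation p = 0.3). This was 1 of 4 ratios computed in each of 6 comparisons. For myoblasts and for day 4 myotubes against ESC the means of the others ran the other way. In myoblasts the mean ratio to MaLR and ERVL reads was 2.556, against 2.352 in ESC, that to LINE reads 1.25, against 1.198 in ESC, and that to reads without a repeat 0.1737, against 0.1537 in ESC (exact permutation p = 0.3, 0.5 and 0.2). In day 4 myotubes the same mean ratios were 2.395, 1.228 and 0.159 (exact permutation p = 0.6, 0.9 and 0.8). In muscle they were 2.123, 1.007 and 0.1296, below ESC as for IAP (exact permutation p = 0.5, 0.2 and 0.4). None of these passes a threshold of 0.05, which the design cannot reach.

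Myoblasts were first compared with ESC. Of 1434 members tested, 203 were higher in myoblasts and 77 lower. That is 14.2% and 5.37%, where all autosomal non-island fragments of that length gave 11% higher and 8.88% lower and all fragments tested gave 8.22% and 11.7%. The median log2 change was 0.32 over the members tested, 0.12 over those eligible fragments and -0.08 over all 25152 fragments. Calls thus leaned towards more reads in myoblasts than the background did, and IAP fragments (13.8% higher, 2.90% lower) and LINE fragments (20.8% higher, 5.27% lower) leaned the same way. Members with unique ends had 79 calls higher and 50 lower of 731 tested, a share of higher calls close to the 11% of eligible fragments. Members with shared ends, whose reads are uncertain between copies, had 124 and 27 of 703. The excess of higher calls over the eligible fragments thus lay in members with shared ends.

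Among the repeat groups, VL30 had 9 members higher and 2 lower of 28 tested (median log2 change 0.34). MuLV had 18 and 3 of 67 (0.60), GLN 20 and 3 of 115 (0.53), MMERVK10C 75 and 16 of 508 (0.45) and RMER 48 and 25 of 394 (-0.01). The internal parts had 54 of 241 members higher (22.4%) and 6 lower, the LTR parts 149 of 1193 (12.5%) higher and 71 lower, with medians of 0.56 and 0.25. The reads of all internal parts summed to 15603, 15912 and 12763 RPM in myoblasts 1, 2 and 3, against 9246, 9059 and 9059 RPM in ESC 1, 2 and 3. All 3 myoblast libraries were thus above all 3 ESC libraries. The sum of the LTR parts was 77916 ± 7577 RPM in myoblasts and 71221 ± 4213 RPM in ESC (SD, n = 3 each).

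**Figure D2:**
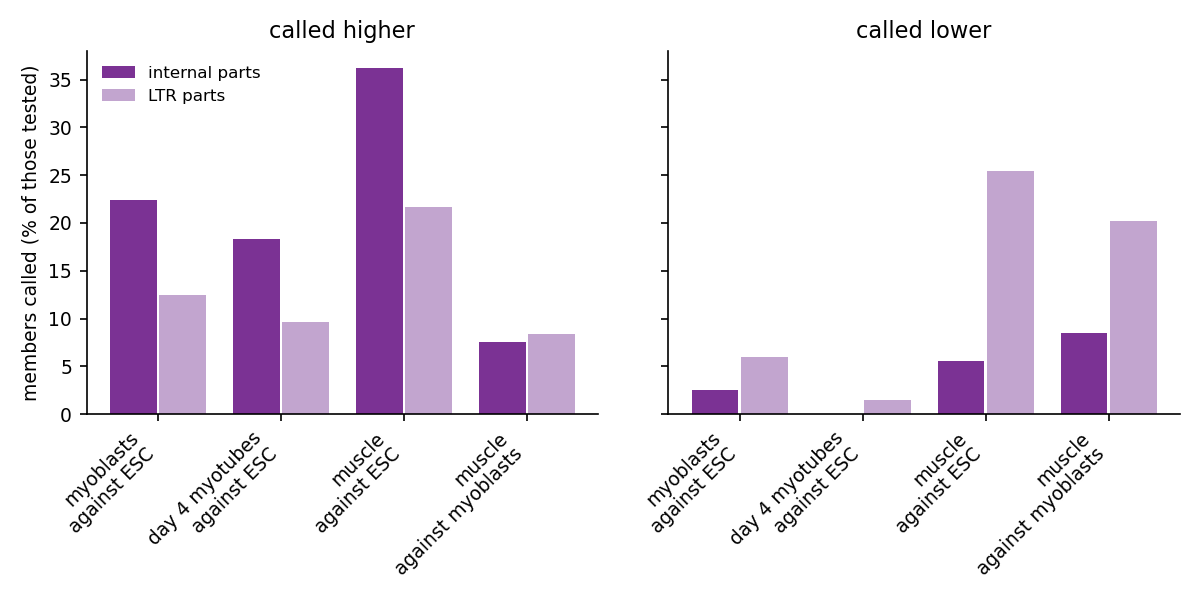
Share of tested members called higher (left) or lower (right) by edgeR, in percent (y axis), for internal parts and for LTR parts in 4 comparisons (x axis). Internal parts were called higher more often than LTR parts in the 3 comparisons with ESC, while LTR parts were called lower more often in muscle.

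Reads summed over all members of a repeat name were tested over 339 names, of which 143 belong to members. The test scales on repeat reads alone. Of the 143, 29 were higher in myoblasts (20.3%, where 15.9% of all names were) and 8 lower (5.59%, where 7.67% of all names were). Without ESC 1, 2 or 3 in turn, 24, 20 and 15 names were called. MERVK26-int (3 members) had 373, 401 and 345 RPM in myoblasts, against 31.9, 19.3 and 34.3 RPM in ESC (log2 change 3.70 ± 0.28, SE; edgeR adjusted p = 4.2e-05). RLTR20A (3 members) had 890, 404 and 599 RPM in myoblasts, against 65.8, 55.9 and 71.6 RPM in ESC (log2 change 3.30 ± 0.32, edgeR adjusted p = 0.00011). For both names the groups lie far apart.

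The MuLV internal part and its LTR both rose. RLTR4_MM-int, the internal part with the viral genes, had 2317, 2638 and 2936 RPM in myoblasts, against 884, 843 and 830 RPM in ESC (log2 change 1.63 ± 0.16, edgeR adjusted p = 0.00011). Its LTR, RLTR4_Mm (35 members), had 381, 334 and 222 RPM in myoblasts, against 65.8, 72.1 and 57.8 RPM in ESC (log2 change 2.23 ± 0.25, edgeR adjusted p = 0.00025). The ranges do not overlap for either name. The sum rests on few copies: of 107 RLTR4_MM-int members 13 had enough reads to test, of which 8 were higher and none lower, with a median log2 change of 5.59. The only ETnERV-int member in the set had 11.9, 36.1 and 21.2 RPM in myoblasts, against 0.0816, 0 and 0 RPM in ESC (edgeR adjusted p = 0.00014). The related ETnERV2-int, with 5 members and more reads, went the other way. It had 182, 59.5 and 93.45 RPM in myoblasts, against 254, 252 and 307 RPM in ESC.

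The names named here that fell in myoblasts have 1 or 2 members each. MamGypLTR1d, an LTR of a Gypsy-type element with 1 member, had 22.6, 58.2 and 27.1 RPM in myoblasts, against 164, 127 and 136 RPM in ESC (log2 change -2.02 ± 0.37, edgeR adjusted p = 0.0057). HERV16-int, LTR75, MER54B and MurERV4_19-int fell by 1.85, 1.59, 1.08 and 2.59 on the log2 scale. MurERV4_19-int and MER54B were no longer called without some single libraries, and MamGypLTR1d with all groups in 1 fit.

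Single fragments showed differences of 2 orders of magnitude and more. The RLTR10 fragment on chromosome 17 (88899905 to 88900392, 488 bp, intergenic, 251 bp of it RLTR10) had 261, 222 and 210 RPM in myoblasts, against 0.653, 0.496 and 0.358 RPM in ESC. The log2 change was 8.95 ± 0.66 (edgeR adjusted p = 8.9e-05). Its right end, at the promoter stretch printed above, has 36 bases that occur at 234 fragment ends, and its left end is unique. An RMER15 fragment on chromosome 13 (11217055 to 11218199, intergenic) had 43.7, 53.2 and 26.3 RPM in myoblasts and 3 reads in all ESC libraries. Of its 1145 bp, 83 bp are RMER15, and both ends are unique. Relative to all reads of the libraries, myoblasts had 605 times the level of ESC (exact 95% interval 207 to 2938.5, counting error only; edgeR adjusted p = 9.2e-05). The RLTR1B-int fragment on chromosome 13 (68665610 to 68665925, intergenic), which lies wholly inside the GLN internal part and has unique ends, had 257, 233 and 249 RPM in myoblasts, against 1.88, 1.98 and 1.19 RPM in ESC (log2 change 7.37 ± 0.59, edgeR adjusted p = 9.8e-05).

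Among fragments that were lower, the RMER17A one on chromosome 1 (190081104 to 190082736, 1633 bp, intergenic) had no read in any myoblast library, against 47.3, 75.9 and 71.1 RPM in ESC. With 3 reads over the group as floor it was at least 555-fold lower in myoblasts (edgeR adjusted p = 0.00014). Only 21 bp of it are RMER17A, and both ends are unique. The RLTR10C fragment on chromosome 4 (89470321 to 89470869, intergenic) had 0.362, 2.48 and 1.04 RPM in myoblasts, against 127, 125 and 107 RPM in ESC (log2 change -6.48 ± 0.66, edgeR adjusted p = 0.00018). At day 4 this fragment had 0.552, 21.97 and 3.50 RPM, of which the middle value is culture 27. The 36 bases of its left and right end occur at 352 and 178 fragment ends. An RMER15 fragment in an intron of Srrm4, a neuronal splicing factor (chromosome 5, 117008227 to 117009204), had 1 read in myoblasts and 719 in ESC (edgeR adjusted p = 0.00026).

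**Figure D3:**
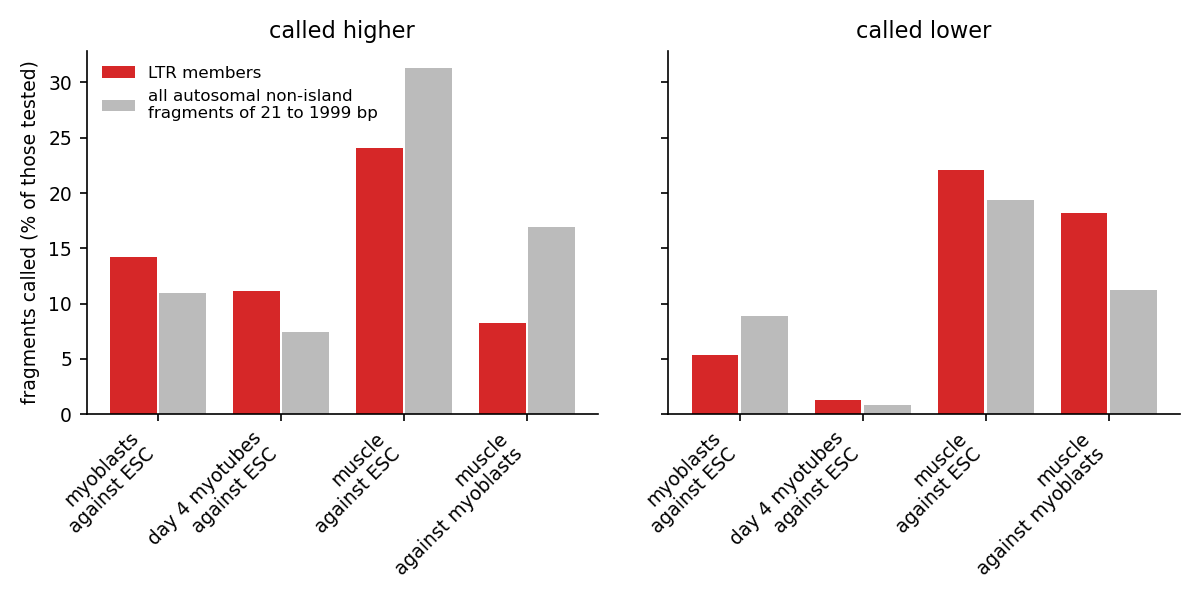
Share of tested fragments called higher (left) or lower (right) by edgeR at an adjusted p under 0.05, in percent (y axis), for the LTR members and for all autosomal non-island fragments under 2000 bp, in 4 comparisons (x axis). The members were called higher at 14.2% against 11% in myoblasts against ESC, and lower at 18.2% against 11.2% in muscle against myoblasts.

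Day 4 myotubes, compared with the same ESC libraries, had 162 of 1454 members higher (11.1%) and 18 lower (1.24%). All eligible fragments gave 7.46% higher and 0.809% lower, and all fragments tested 5.42% and 5.93%. The median log2 change was 0.48 over the members tested, 0.41 over the eligible fragments and 0.00 over all fragments. With fragments of 21 bp to under 2000 bp alone it was 0.13 over the members and 0.12 over all of them. With library totals in place of TMM scaling the medians of members and of all fragments were -0.11 and -0.51, and the calls were 156 higher and 25 lower. MuLV had 16 members higher of 68 tested and none lower, VL30 7 of 30 and none lower, and GLN 19 higher and 1 lower of 117. Internal parts had 45 of 246 higher and none lower, LTR parts 117 of 1208 higher and 18 lower.

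Among the names, 11 of 143 were higher in day 4 myotubes (7.69%, where 6.19% of all names were) and none lower, where 1.18% of all names were. DESeq2 called 23 higher and 7 lower. Without ESC 1, 2 or 3 in turn, edgeR called 5, 5 and 4 names, and without the day 4 library of culture 21, 27 or 26 it called 18, 31 and 7. Of the 5 names with the smallest adjusted p, MERVK26-int, RLTR4_Mm, RLTR20A and ETnERV-int were also among the 5 in myoblasts, against the same ESC libraries. MERVK26-int had 571, 270 and 304 RPM at day 4 (log2 change 3.73 ± 0.39 against ESC, edgeR adjusted p = 0.0026) and RLTR4_Mm had 234, 255 and 317 RPM (2.04 ± 0.25, edgeR adjusted p = 0.0036). RLTR20A and ETnERV-int had log2 changes of 3.58 ± 0.44 and 8.59 ± 1.19 (edgeR adjusted p = 0.0036 and 0.005). ETnERV2-int had 265, 55.8 and 95.4 RPM at day 4, against 254, 252 and 307 RPM in ESC. RLTR6-int, the internal part of VL30 elements with RLTR6 LTRs (9 members), had 268, 124 and 386 RPM at day 4, against 39.01, 28.4 and 31.2 RPM in ESC (log2 change 2.96 ± 0.44, edgeR adjusted p = 0.0069). The lowest value of the day 4 group was that of culture 27. Without ESC 3 its edgeR adjusted p was 0.0539. RLTR4_MM-int did not pass at day 4, with 2976, 1034 and 2557 RPM (log2 change 1.34 ± 0.33, edgeR adjusted p = 0.0603), and its lowest value too is that of culture 27.

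The RLTR10 fragment on chromosome 17 was again first, with 97.5, 155 and 279 RPM at day 4. An RLTR6_Mm fragment at the promoter of Oasl2, an interferon-induced gene (chromosome 5, 115345089 to 115345828), had 61.7, 85.0 and 148 RPM at day 4, against 0.367, 0.397 and 0.119 RPM in ESC (log2 change 8.69 ± 0.82, edgeR adjusted p = 0.0016). Only 45 of the 740 bp of this fragment are RLTR6_Mm. The bases of its left end occur at 48 fragment ends, and its right end is unique. An RMER17D2 fragment on chromosome 12 (18584010 to 18584640, intergenic) had 42.7, 81.8 and 56.8 RPM at day 4, against 0.286, 0.0992 and 0.239 RPM in ESC (log2 change 8.50 ± 0.81, edgeR adjusted p = 0.0016). Of its 631 bp, 269 bp are RMER17D2, and the bases of its left end occur at 6 fragment ends. The RMER17A fragment had no read at day 4 either and was at least 702-fold lower than in ESC. The Srrm4 intron fragment had 1 read at day 4. An RMER17D fragment on chromosome 9 (37591856 to 37592370, intergenic) had 0.631, 1.45 and 1.80 RPM at day 4, against 31.7, 28.8 and 43.6 RPM in ESC (log2 change -4.30 ± 0.62, edgeR adjusted p = 0.0027). Only 69 of its 515 bp are RMER17D. The bases of its right end occur at 169 fragment ends, and its left end is unique.

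Muscle tissue was compared with ESC next, and here the members moved both ways. Of 1368 tested, 330 (24.1%) were higher in muscle and 302 (22.1%) lower. All eligible fragments gave 31.3% higher and 19.4% lower, and all fragments tested 24.4% and 34.6%. The split depends on scaling. With library totals it was 218 higher and 539 lower, with fragments of 21 bp to under 2000 bp alone 261 higher and 436 lower, and with DESeq2 364 and 323. Library totals shifted the median of all fragments by -0.80 (log2) and that of the members to -0.86, against -0.07 with TMM scaling. The eligible fragments had a median of 0.24 with TMM scaling.

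Within the members the internal and LTR parts went apart. Internal parts had 84 of 232 higher in muscle (36.2%) and 13 lower, while LTR parts had 246 of 1136 higher (21.7%) and 289 lower (25.4%). With library totals the internal parts had 60 higher and 42 lower and the LTR parts 158 and 497, so internal parts had more calls higher than lower under both scalings and LTR parts more calls lower than higher. For the LTR parts this order turned without the low-count filter (275 higher, 232 lower) and with all groups in 1 fit (205 and 185). MuLV had 30 members higher and 8 lower of 65 tested, and GLN 14 higher and 37 lower of 106. GLN had more calls lower than higher with DESeq2 (38 against 14) and library totals (54 against 9) too. Among members with a primer binding site at an end, 19 of 50 tested were higher in muscle and none lower, at a median log2 change of 0.76. Of those with the promoter stretch at an end, 18 of 83 were higher and 21 lower, at a median of -0.26. In the same fit 31.3% of all eligible fragments were higher and 19.4% lower. Other scalings are not given for these sets.

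Of 143 member names, 38 were higher in muscle (26.6%, where 23.7% of all names were) and 44 lower (30.8%, where 29.3% were), and without muscle 1 a total of 53 were called. RMER4B (8 members) had 242, 171 and 222 RPM in muscle, against 17.6, 23.6 and 27.1 RPM in ESC (log2 change 3.29 ± 0.25, edgeR adjusted p = 6.2e-05). Only 3 RMER4B members had enough reads to test, of which 2 were higher and 1 lower. RLTR20A had 548, 326 and 640 RPM in muscle (log2 change 3.00 ± 0.21, edgeR adjusted p = 3.8e-05). RLTR9D, an LTR of ERVK elements with 1 member, had 15.8, 9.03 and 21.3 RPM in muscle and no read in ESC. ETnERV-int and RLTR31B_Mm were higher too, by 9.02 and 1.23 on the log2 scale. In each of these names all muscle libraries were above all ESC libraries. ETnERV2-int had 34.4, 22.3 and 332 RPM in muscle, against 254, 252 and 307 RPM in ESC.

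Lower in muscle were RMER21A (5 members), with 35.7, 42.1 and 67.6 RPM in muscle, against 207, 181 and 233 RPM in ESC (log2 change -2.05 ± 0.23, edgeR adjusted p = 0.00042), and RLTR33 (4 members), with 1.57, 1.00 and 3.58 RPM in muscle, against 19.6, 25.0 and 26.8 RPM in ESC (-3.53 ± 0.45, edgeR adjusted p = 0.00078). LTR50, MER57C2 and MurERV4_19-int fell by 2.40, 2.45 and 3.86 on the log2 scale. The MuLV internal part RLTR4_MM-int did not pass here, at 1035, 742 and 1889 RPM in muscle (log2 change 0.52 ± 0.20, edgeR adjusted p = 0.0574). Muscle 2 lies below all ESC libraries and muscle 3 above them by the largest margin.

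The RLTR1B-int fragment on chromosome 13 led the fragments that were higher in muscle, with 314, 237 and 386 RPM (log2 change 8.28 ± 0.49, edgeR adjusted p = 9.3e-06). Fragments were named only where the libraries of muscle and ESC do not overlap, so that separation was fixed by the choice. The RLTR10 fragment on chromosome 17 had 134, 94.7 and 195 RPM in muscle. An RMER13A fragment on chromosome 5 (23364474 to 23365128, intergenic, unique ends) had 163, 146 and 259 RPM in muscle, against 3.35, 4.76 and 3.70 RPM in ESC (log2 change 6.38 ± 0.42, edgeR adjusted p = 9.3e-06). The RLTR10C fragment on chromosome 4 led those that were lower, with 0.833, 0.223 and 1.10 RPM in muscle (log2 change -6.58 ± 0.54, edgeR adjusted p = 1.5e-05). The RMER17A fragment had no read in muscle and was at least 583-fold lower, and the Srrm4 intron fragment had 1 read.

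**Figure D4:**
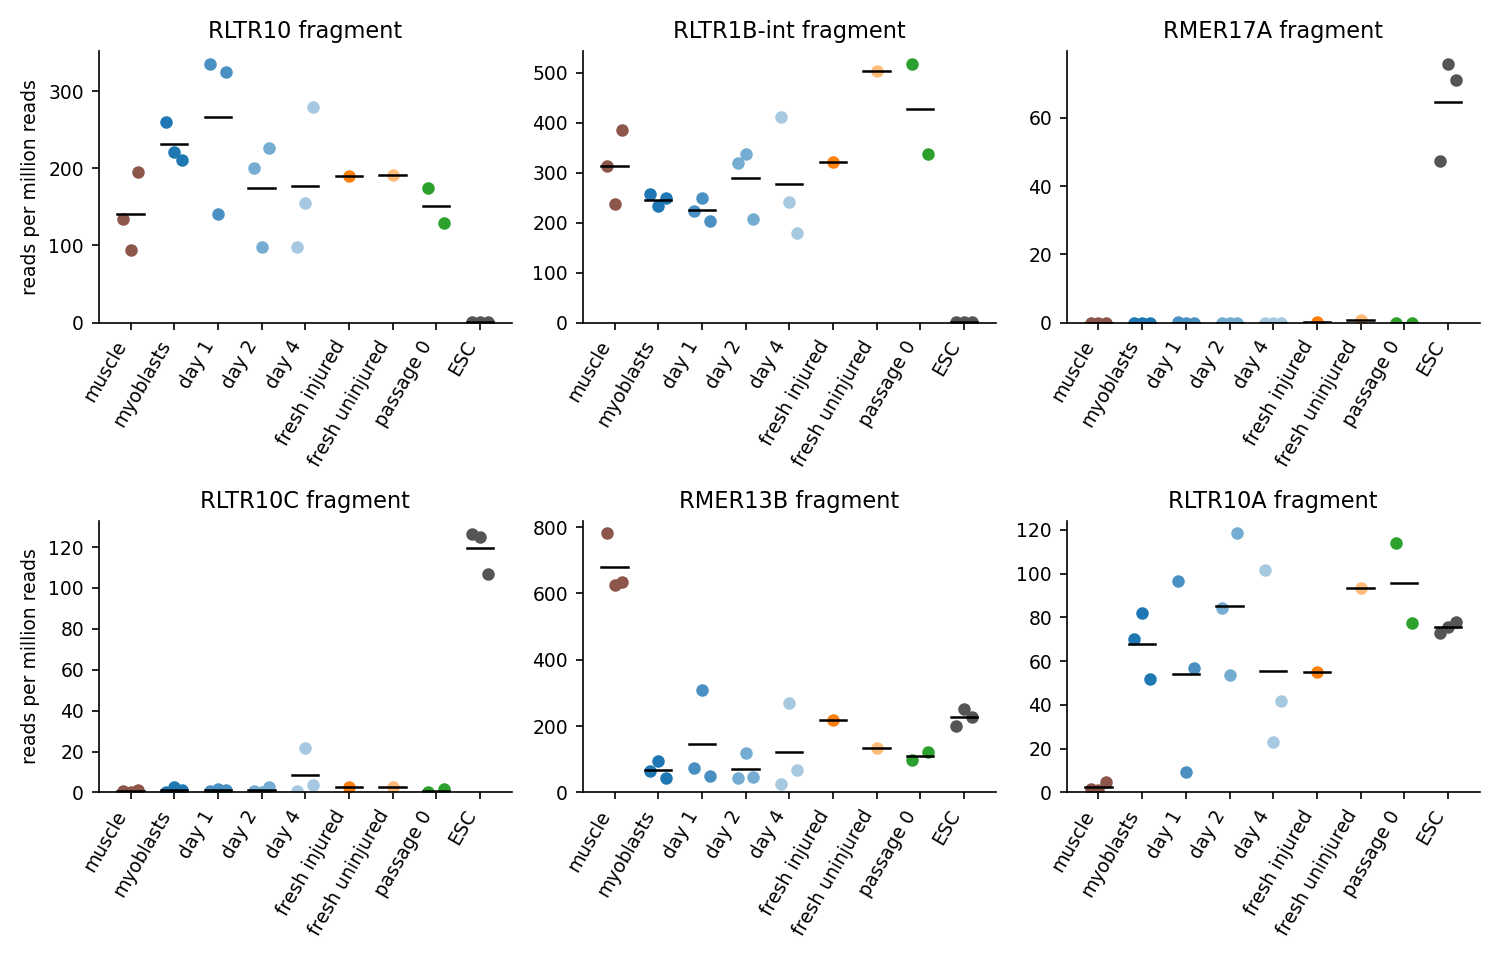
RPM (y axis) of 6 named fragments in each library, by group (x axis), where points are libraries and bars are group means. RLTR10 and RLTR1B-int fragments are near 0 in ESC alone, the RMER17A and RLTR10C fragments are high in ESC, the RMER13B fragment is highest in muscle and the RLTR10A fragment is lowest there.

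The levels in uncultured and passage 0 cells, which were in no test against ESC, were as follows. The RLTR10 fragment on chromosome 17 had 190 RPM in cells of injured muscle, 192 RPM in cells of uninjured muscle, and 174 and 129 RPM at passage 0. The RMER17A fragment had 0.129 RPM after injury, 0.802 RPM without injury and no read at passage 0. The comparisons with ESC share the same 3 ESC lines, and all libraries outside ESC hold C57BL/6J DNA in whole or in part.

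Muscle was then set against myoblasts, that is, tissue against its cultured precursors. Of 1386 members tested, 114 were higher in muscle (8.23%) and 252 lower (18.2%). All eligible fragments went the other way, with 16.9% higher and 11.2% lower, while all fragments tested gave 13.7% and 17.4%. The median log2 change was -0.48 over the members, 0.12 over the eligible fragments and -0.13 over all fragments. With library totals the split was 67 higher and 307 lower, and the median of all fragments -0.65. Without the low-count filter 108 were higher and 117 lower, and with all groups in 1 fit 65 and 175. The calls rest on muscles 1 and 2. Without either of them no member was called, at edgeR adjusted p of 0.0601 and 0.0587 for the fragments named below, and without muscle 3 there were 345. Without myoblasts of culture 27 there were 213, and without those of culture 26 there were 187.

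Many GLN members fell. Of 116 tested, 45 were lower in muscle and 2 higher, at a median log2 change of -1.30, and with library totals 48 were lower and 2 higher. MMERVK10C had 101 lower and 25 higher of 504, RMER 50 and 44 of 363, and MuLV 11 and 8 of 67. ERVL members were called higher more often than lower, with 15 and 6 of 75. LTR parts had 232 lower and 96 higher of 1149, internal parts 20 and 18 of 237, and without the low-count filter the internal parts had 3 and 14. Within MMERVK10C, RLTR10A had 56 members lower and 4 higher of 135, and RLTR10, of the same family, 1 lower and 4 higher of 43. Shared ends were frequent among the lower calls: 146 of 691 members with shared ends were lower and 32 higher, against 106 and 82 of 695 with unique ends.

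Of 143 member names, 24 were higher in muscle (16.8%, where 14.8% of all names were) and 31 lower (21.7%, where 17.8% were). With library totals these were 12 and 26, and without muscle 1 a total of 30 were called. RLTR1B, the GLN LTR with 149 members, had 1298, 858 and 2284 RPM in muscle, against 4007, 4188 and 3048 RPM in myoblasts (log2 change -1.25 ± 0.22, edgeR adjusted p = 0.0016). RLTR1D (4 members) had 0.740, 1.12 and 2.49 RPM in muscle, against 15.1, 22.1 and 24.6 RPM in myoblasts (-3.74 ± 0.58, edgeR adjusted p = 0.00082). RMER21A had 35.7, 42.1 and 67.6 RPM in muscle, against 176, 196 and 355 RPM in myoblasts (-2.24 ± 0.39, edgeR adjusted p = 0.0016). MERVK26-int and LTR68 fell by 1.74 and 2.60 on the log2 scale.

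Higher in muscle were MamGypLTR1d, with 211, 180 and 196 RPM in muscle, against 22.6, 58.2 and 27.1 RPM in myoblasts (log2 change 2.63 ± 0.39, edgeR adjusted p = 0.00054), and the only MMVL30-int member, with 39.8, 68.5 and 32.3 RPM in muscle, against 6.25, 8.68 and 4.69 RPM in myoblasts (3.09 ± 0.50, edgeR adjusted p = 0.0012). LTR75, RLTR11B and MER34A1 had log2 changes of 2.04, 1.42 and 1.56. MamGypLTR1d and LTR75, each with 1 member, were thus lower in myoblasts than in muscle and than in ESC. For RLTR1B, RLTR1D, RMER21A, MamGypLTR1d and MMVL30-int the muscle and myoblast libraries do not overlap, and the 10 names given here were called with each library left out in turn.

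**Figure D5:**
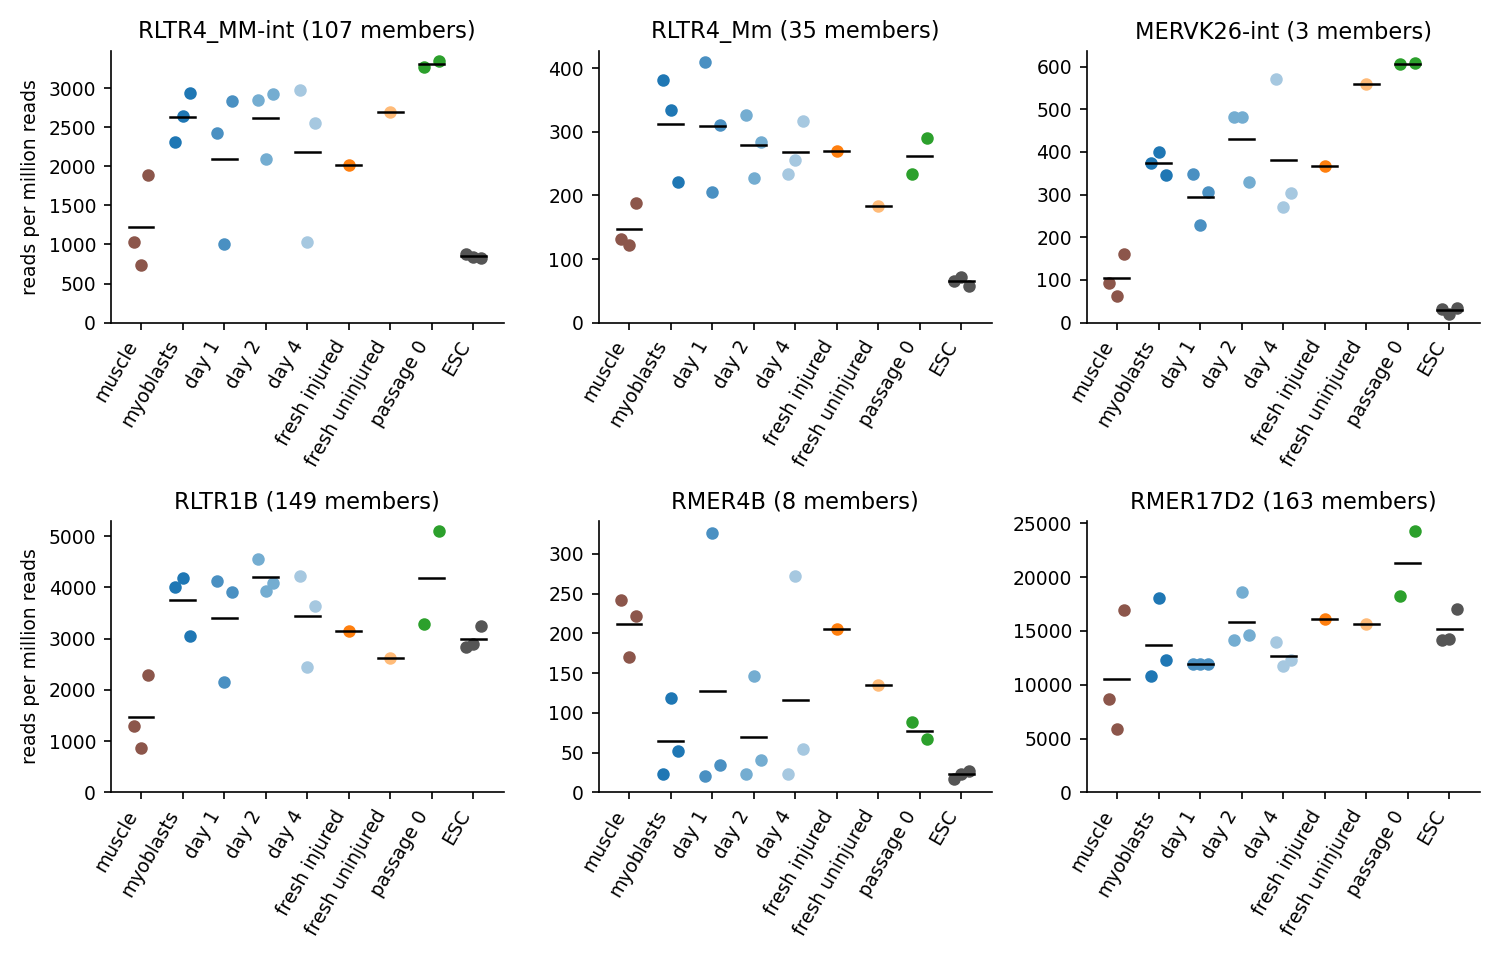
RPM (y axis) of 6 repeat names, summed over their members, in each library by group (x axis), where points are libraries and bars are group means. RLTR4_Mm and MERVK26-int are low in ESC, and so is RLTR4_MM-int, for which muscle 2 lies below ESC. RLTR1B is low in muscle, and the day 1 library of culture 27 lies in the muscle range. RMER4B is high in muscle and in the day 1 and day 4 libraries of culture 27 and in cells of injured muscle, and RMER17D2 overlaps between groups.

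The 74 bp RMER17D2 fragment on chromosome 1, printed whole above, led the fragments that were higher in muscle. It had 29.0, 43.4 and 56.8 RPM in muscle, against 1.36, 3.31 and 1.43 RPM in myoblasts (log2 change 4.95 ± 0.58, edgeR adjusted p = 0.012). ESC lay between, at 9.88, 11.7 and 6.33 RPM. An RMER13B fragment on chromosome 15 (28425848 to 28426347, wholly inside the element, unique ends) had 782, 624 and 634 RPM in muscle, against 64.0, 94.8 and 43.3 RPM in myoblasts (3.89 ± 0.49, edgeR adjusted p = 0.012). At day 4 it had 25.2, 271 and 68.4 RPM, of which the middle value is culture 27. A MURVY-LTR fragment in an intron of Ercc3, a DNA repair helicase, had 201, 243 and 213 RPM in muscle, against 26.6, 32.8 and 26.6 RPM in myoblasts (3.48 ± 0.47, edgeR adjusted p = 0.012). ESC overlapped muscle, at 129, 231 and 175 RPM, and culture 27 had 248 RPM at day 1 and 160 RPM at day 4. Only 37 of the 603 bp of this fragment are MURVY-LTR.

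The 3 named fragments that fell are all RLTR10A, of 232 or 233 bp. One in an intron of Dcc, a netrin receptor, had 1.202, 0.446 and 1.29 RPM in muscle, against 47.6, 26.98 and 42.2 RPM in myoblasts (-4.86 ± 0.67, edgeR adjusted p = 0.012). The one on chromosome 13 (107848478 to 107848709), printed whole above, had 1.57, 1.00 and 4.68 RPM in muscle, against 70.1, 82.2 and 51.8 RPM in myoblasts (-4.40 ± 0.64, edgeR adjusted p = 0.012), and 72.8, 75.7 and 77.7 RPM in ESC. The one on chromosome 4 (88660513 to 88660745) had 2.04, 1.67 and 4.38 RPM in muscle, against 53.2, 40.5 and 76.4 RPM in myoblasts (-3.97 ± 0.59, edgeR adjusted p = 0.012). The separation of muscle from myoblasts was fixed by the choice of fragments without overlap. In all 3 fragments every muscle library also lies below every ESC library, and at least 1 end of each has further copies.

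The 10 names with most members were described next. In myoblasts against ESC the MMERVK10C internal part rose, at 6006 ± 1403 RPM in myoblasts and 3812 ± 98.3 RPM in ESC (log2 change 0.63 ± 0.13, edgeR adjusted p = 0.0094), as did RLTR10-int (2708 ± 363 and 1962 ± 139 RPM), RLTR10 (903 ± 161 and 609 ± 12.6 RPM) and RLTR10A (8736 ± 440 and 7052 ± 331 RPM; SD, n = 3 each), with edgeR adjusted p of 0.0183, 0.0249 and 0.0396. The RLTR10 sum includes the chromosome 17 fragment named above, with 261, 222 and 210 RPM in myoblasts, against 0.653, 0.496 and 0.358 RPM in ESC. Much of the rise of that name thus lies in a single fragment. Of 41 RLTR10 members tested, 8 were higher and none lower, at a median log2 change of 0.25. RLTR1B, RLTR10C, RLTR10D, RMER17B and RMER17D2 did not pass. RMER17D2, the name with most reads, had 13704 ± 3813 RPM in myoblasts and 15144 ± 1606 RPM in ESC. Against ESC, muscle was lower in RLTR1B (log2 change -1.01 ± 0.21, edgeR adjusted p = 0.0045), RLTR10A (-0.57 ± 0.16, edgeR adjusted p = 0.0157) and RLTR10C (-0.57 ± 0.17, edgeR adjusted p = 0.0211), and higher in RLTR10 (0.58 ± 0.20, edgeR adjusted p = 0.0412) and RLTR10D (0.31 ± 0.10, edgeR adjusted p = 0.0268). RLTR10 had 853.5, 516 and 1343 RPM in muscle, against 623.5, 603 and 601 RPM in ESC. RLTR10D had 4443, 3436 and 5157 RPM in muscle, against 3831, 3400 and 3711 RPM in ESC. Both overlap in RPM through muscle 2, and RLTR10A and RLTR10C do so through muscle 3. Of 69 RLTR10D members tested, 17 were higher in muscle than in ESC and 17 lower. In muscle, RLTR10A had 4158, 3042 and 6883 RPM and was lower than in myoblasts (-0.80 ± 0.18, edgeR adjusted p = 0.0045). RLTR4_MM-int was lower in muscle than in myoblasts as well (-1.04 ± 0.24, edgeR adjusted p = 0.0053).

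Differentiation itself was tested by day 4 myotubes against myoblasts of the same cultures. No member was called of 1427 tested, where 0% of all 22438 fragments were, and 3 members (0.21%) had an unadjusted p under 0.05, as did 0.37% of all fragments. DESeq2 called none, and neither did the fit with the culture as a block. None of the 142 names tested passed. The median log2 change was 0.15 over the members, 0.28 over the eligible fragments and 0.13 over all fragments, and with library totals -0.17 and -0.11. The internal parts summed to 20726, 9387 and 11615 RPM at day 4, against 15603, 15912 and 12763 RPM in the myoblasts of cultures 21, 27 and 26. They were thus higher at day 4 in culture 21 and lower in the other 2.

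Passage was tested by myoblasts at passage 8 to 10 against cells at passage 0. No member was called of 1443 tested, where 0% of all 23419 fragments were, and DESeq2 called none. An unadjusted p under 0.05 was found for 67 members (4.64%) and for 2.84% of all fragments. Cultures 26 and 27 were sampled at both passages, and with the culture as a block 22 members were called, 8 higher (0.554%) and 14 lower (0.97%) in myoblasts. In the same fit 3.36% of the eligible fragments were called higher and 0.8% lower, and of all fragments 3.51% and 0.747%, so the members had few calls higher beside that background. The median log2 change was -0.34 over the members, 0.13 over the eligible fragments and 0.08 over all fragments, and with library totals -0.10 and 0.30. MuLV reads summed to 4888 ± 307 RPM in myoblasts (n = 3), against 6144 and 6665 RPM in the 2 passage 0 libraries. VL30 reads summed to 1181 ± 99.9 RPM in myoblasts, against 1565 and 1863 RPM at passage 0 (SD, n = 3 myoblast libraries), and all 3 myoblast libraries were below both. Uncultured cells of injured muscle had 4565 RPM of MuLV and 1346 RPM of VL30, and those of uninjured muscle 5530 and 1444 RPM.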

How the data were processed

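Sequencing used the Illumina GA2 platform and mapping the mm9 genome, per the labels' protocols. Bowtie 0.11.3 and DESeq are listed in the submitters' processing notes, with no settings. Raw counts of reads, by fragment and by library, are what the authors deposited, together with their own repeat and island classes. A further 184 columns of per-sample values were not used. Libraries held 6237851 to 14696855 reads, and intervals cover counting error at 95% only.

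Each comparison used its own 2 groups of libraries. The main test was the quasi-likelihood test of edgeR 4.0.16 in R 4.3.3, with TMM scaling, a minimum count of 10, 2-sided p and Benjamini-Hochberg adjustment over the whole table at 0.05. Counts per repeat name were summed over eligible fragments and tested likewise. Sums were compared by exact permutation tests with scipy 1.17.1. Alternatives were DESeq2 1.42.0, library totals, no filter, fragments of 21 bp to under 2000 bp alone, blocks, all groups in 1 fit, and each library left out. Where a group had no read, 3 reads over the group were the floor. Genes come from GENCODE M1 on mm9, and promoters reach from 2000 bp before a gene's start to 500 bp after it. Sequences come from NCBIM37 (mm9).

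Named are, per comparison and direction, up to 3 called members of smallest adjusted p without overlap of libraries, up to 5 called names, and the 10 names with most members. The sets with a primer binding site or the promoter stretch at an end were added after sequences were read. The members and lists were chosen with earlier results of these data known.

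Deviations from the group mean correlated at 0.85, 0.65 and 0.70 between day 4 and myoblasts of cultures 21, 27 and 26, and at 0.44 and -0.04 between myoblasts and passage 0 of cultures 26 and 27. These pairs share a culture, per the labels. Day 4 and ESC libraries of the same replicate number correlated at 0.48, 0.30 and 0.25.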

Additional observations from a re-analysis of the deposited data

How the results depend on the processing

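Of the counts of members called, those of myoblasts, day 4 myotubes and muscle against ESC stayed within 1.5 times under every alternative run. Muscle against myoblasts moved from 366 members to 225 without the low-count filter, 240 with all groups in 1 fit and 81 (43 higher, 38 lower) with the replicate number as a block, a number that marks no shared origin there. With 1 library left out it ranged from 0 to 380. Myoblasts against passage 0 gave 6 members without the filter and 22 with the culture as a block. The block changed no other count by over 1.5 times. Repeat names called ranged from 15 to 42 for myoblasts against ESC with 1 library left out (DESeq2 31 higher, 19 lower), and from 4 to 31 for day 4 myotubes against ESC, with 30 by DESeq2 and 18 with all groups in 1 fit. They ranged from 53 to 92 for muscle against ESC and from 30 to 57 for muscle against myoblasts, and DESeq2 called 2 in myoblasts against passage 0. The ratio of member to IAP reads of myoblasts against passage 0 (0.15, log2) was 0.39 without passage 0 of culture 26 and -0.094 without that of culture 27. The total of the muscle lineage against ESC, 0.01 (log2), was -0.11 when only reads of fragments of 21 bp to under 2000 bp were counted, and ranged from -0.0456 to 0.1262 with 1 culture, muscle or line left out. The causes were not tested. Single copies were read thinly: 676 members had under 10 reads over all libraries.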
